A study of Mus musculus with 77 samples.

Results

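The 5 EC control libraries of mouse cerebral white matter were compared with the control libraries of 3 other cell types from the same tissue, which gave 24 control libraries of the 77 in the series. The EC group held libraries 3, 5, 7, 9 and 11. The other groups held 7 pericyte, 6 OPC and 6 astrocyte libraries. Every library was chosen by its cell type label and by the label control, and no stroke library entered any value. EC and OPC are not spelled out by the labels and were read as endothelial cells and oligodendrocyte precursor cells, a reading that marker genes were used to check. The sources used here give neither strain, age nor sex, nor any sham procedure of the controls, nor the way in which cells were isolated. No label ties a library to an animal of its own, so the p-values cover only library-to-library spread, which may be technical. The question addressed was which genes were higher or lower in the EC libraries than in the 3 other types pooled, and than in each of them singly.

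Endothelial cells line the blood vessels of the brain and form the blood-brain barrier. Their tight junctions seal the path between cells, and transporters in their membranes carry glucose, amino acids and other solutes across them. Wnt ligands from the surrounding tissue keep up this barrier state through beta-catenin, while VEGF, angiopoietin and Notch signals govern vessel growth and stability. Pericytes sit on the outer side of capillaries within a shared basement membrane, and astrocyte endfeet cover both.

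Counts in the EC libraries 3, 5, 7, 9 and 11 summed to 134742841, 129225403, 80697263, 67066821 and 64305822 reads. The totals were 47422629 to 66498374 in pericyte, 54752585 to 70845264 in OPC and 43367636 to 64557642 in astrocyte libraries. EC libraries 3 and 5 were therefore the deepest of the 24. Levels are given as CPM, counts scaled to a common library size after TMM factors were applied, and means are followed by the SD over the libraries of a type. The log2 values of EC libraries correlated with each other at 0.967 to 0.974 across genes, and their median correlation was 0.916 with astrocyte, 0.885 with OPC and 0.860 with pericyte libraries. Genes are not independent replicates, and these correlations are a description. Each cell type was deposited as a table of its own, so a difference between tables cannot be told apart from a difference between cell types. Pericyte library 6 stood apart: its 10 ependymal and choroid plexus genes summed to 4577 CPM, against 53.1 to 130.4 CPM in the other pericyte libraries, and values that rest on it are given with and without it.

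The EC libraries carried the endothelial markers at the highest level of the 4 types. The summed level of the 14 endothelial markers was 3228, 3113, 2380.2, 2313 and 3836 CPM in EC libraries 3, 5, 7, 9 and 11. The same sum was 300.2 to 486 CPM (median 387) in pericyte, 40.8 to 60.0 CPM (median 49.0) in OPC and 17.9 to 58.4 CPM (median 36.0) in astrocyte libraries. Every EC library was above every other library. The sum of 14 pericyte markers was 60.9, 68.3, 65.0, 48.8 and 60.9 CPM in EC, against 3942 to 17587 CPM (median 11399.7) in pericyte, 1019.8 to 1644 CPM (median 1202) in OPC and 70.7 to 124 CPM (median 109) in astrocyte libraries. EC libraries therefore had the lowest pericyte sums of the 24. The sum of 13 OPC markers was 342, 301, 258, 186 and 422 CPM in EC, against 769.7 to 1135 CPM (median 814) in pericyte, 13992 to 16689 CPM (median 15691) in OPC and 624 to 672 CPM (median 652) in astrocyte libraries, and EC libraries were again below all others. The sum of 14 astrocyte markers was 3577, 4183, 2782, 3054 and 5305 CPM in EC, against 1793 to 3466 CPM (median 2053) in pericyte, 769 to 1086 CPM (median 946) in OPC and 28911 to 64168 CPM (median 48189.6) in astrocyte libraries, so EC libraries overlapped pericyte libraries there and were far below astrocyte libraries. Each of the 4 labels therefore stood beside the highest sum of its own markers. In bulk libraries, fewer cells of a type and less RNA per cell cannot be told apart.

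**Figure D1:**
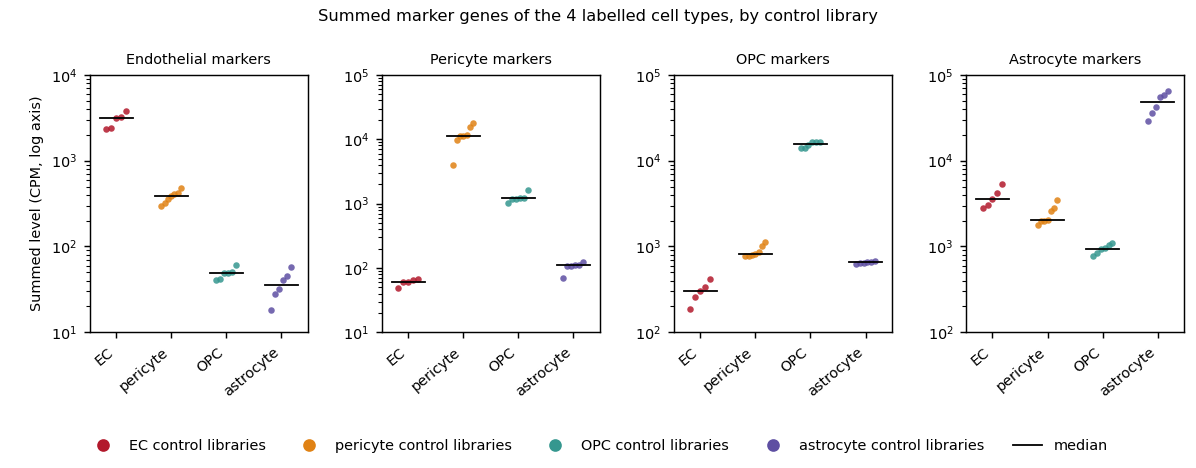
Summed CPM of the endothelial, pericyte, OPC and astrocyte marker lists (log axis) in each of the 24 control libraries, with 1 point a library and a black line at the median of each cell type. The EC libraries hold the highest endothelial sums, 2313 to 3836 CPM, and the lowest pericyte and OPC sums.

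Of the 4 genes that mark brain endothelium here, each was higher in EC libraries than in each of the other types. Cldn5, the claudin that seals the tight junctions of the barrier, lies at chr16:18776847-18778262 on the plus strand of GRCm38. Its level was 639.6, 494, 388, 398 and 723 CPM in EC libraries 3, 5, 7, 9 and 11, against 6.09 to 22.8 CPM (median 14.3) in pericyte, 0.792 to 5.12 CPM (median 1.42) in OPC and 0.613 to 6.07 CPM (median 3.14) in astrocyte libraries. No EC library overlapped a library of another type. The Cldn5 log2 fold change of EC was 5.25 ± 0.46 over pericyte, 8.09 ± 0.56 over OPC and 7.39 ± 0.55 over astrocyte libraries, with a largest adjusted p of 1.46e-09 (± SE, edgeR quasi-likelihood test with Benjamini-Hochberg adjustment over 23060 genes). Pecam1, the adhesion protein CD31 of endothelial contacts, lies at chr11:106654217-106750628 on the minus strand. Its level was 132, 175, 125, 110.4 and 160.4 CPM in EC, against 3.40 to 11.8 CPM (median 3.99) in pericyte, 0.037 to 1.51 CPM (median 0.364) in OPC and 0.368 to 2.68 CPM (median 1.58) in astrocyte libraries. EC libraries were again above all others. The Pecam1 log2 fold change was 4.64 ± 0.48 over pericyte, 8.13 ± 0.60 over OPC and 6.46 ± 0.55 over astrocyte libraries, with a largest adjusted p of 1.68e-08. Without OPC library 12 the value over OPC was 8.80.

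Flt1, the VEGF receptor 1, lies at chr5:147561604-147726011 on the minus strand and reached 305, 286, 237, 222 and 349 CPM in EC, against 11.7 to 46.5 CPM (median 33.6) in pericyte, 2.48 to 5.16 CPM (median 2.84) in OPC and 1.67 to 10.5 CPM (median 4.28) in astrocyte libraries. The pericyte libraries had more of it than OPC and astrocyte libraries, and none reached the lowest EC library. The Flt1 log2 fold change was 3.05 ± 0.36 over pericyte, 6.39 ± 0.44 over OPC and 5.77 ± 0.43 over astrocyte libraries, with a largest adjusted p of 1.31e-07. Vwf, the clotting factor stored in endothelial granules, lies at chr6:125546774-125686679 on the plus strand and reached 164, 156, 157, 148 and 161 CPM in EC, against 3.28 to 8.23 CPM (median 6.16) in pericyte, 8.87 to 12.1 CPM (median 11.0) in OPC and 1.43 to 5.57 CPM (median 1.73) in astrocyte libraries. The Vwf log2 fold change was 4.75 ± 0.29 over pericyte, 3.88 ± 0.30 over OPC and 5.89 ± 0.33 over astrocyte libraries, with a largest adjusted p of 6.09e-11. EC and other libraries did not overlap for any of the 4 genes.

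All 14 endothelial markers were higher in EC than in the 3 other types pooled, against 25.8% of all tested genes higher in that comparison, and their median log2 fold change was 5.44, against -0.12 over all tested genes. Higher than each of the 3 types singly were 12 of the 14, against 5.39% of all genes. The other 2 were Emcn and Esam. Emcn, a surface sialomucin of capillaries and veins, had 64.6 ± 17.8 CPM in EC, against 75.4 ± 74.0, 4.26 ± 0.678 and 0.416 ± 0.192 CPM in pericyte, OPC and astrocyte libraries; its log2 fold change over pericyte was -0.22 ± 0.39, adjusted p = 0.634, and 0.42 with an adjusted p of 0.153 without pericyte library 6, in which it reached 239 CPM. Esam, a junction protein of endothelium, had 257 ± 55.1 CPM in EC, against 164 ± 65.0, 14.7 ± 2.30 and 3.96 ± 1.02 CPM in pericyte, OPC and astrocyte libraries, and its log2 fold change over pericyte was 0.65 ± 0.23, adjusted p = 0.0194. That value is below the minimum of 1 set for a call in each type, and the adjusted p was 0.178 with library totals as the scaling. Cdh5, the VE-cadherin of adherens junctions, had 23.7 ± 5.31 CPM in EC, against 3.13 ± 0.575, 0.0694 ± 0.0637 and 0.172 ± 0.211 CPM in pericyte, OPC and astrocyte libraries. Its log2 fold changes over pericyte, OPC and astrocyte libraries were 2.92, 8.36 and 7.11, or 7.98 over astrocytes without astrocyte library 10. Tek, the angiopoietin receptor TIE2, had 93.4 ± 24.1 CPM in EC, against 5.40 ± 2.56, 0.782 ± 0.401 and 1.46 ± 0.918 CPM in pericyte, OPC and astrocyte libraries, with log2 fold changes of 4.11, 6.90 and 6.00. Egfl7, a secreted factor of endothelium, had 72.5 ± 10.1 CPM in EC, against 13.6 ± 2.20, 4.03 ± 0.654 and 5.46 ± 0.686 CPM in pericyte, OPC and astrocyte libraries and log2 fold changes of 2.42, 4.17 and 3.73. Erg, an ETS transcription factor of endothelial identity, had 9.47 ± 1.60 CPM in EC, against 0.252 ± 0.226, 0.0478 ± 0.0489 and 0.134 ± 0.0812 CPM in pericyte, OPC and astrocyte libraries and log2 fold changes of 5.22, 7.60 and 6.12, or 8.21 over OPC without OPC library 12.

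**Figure D2:**
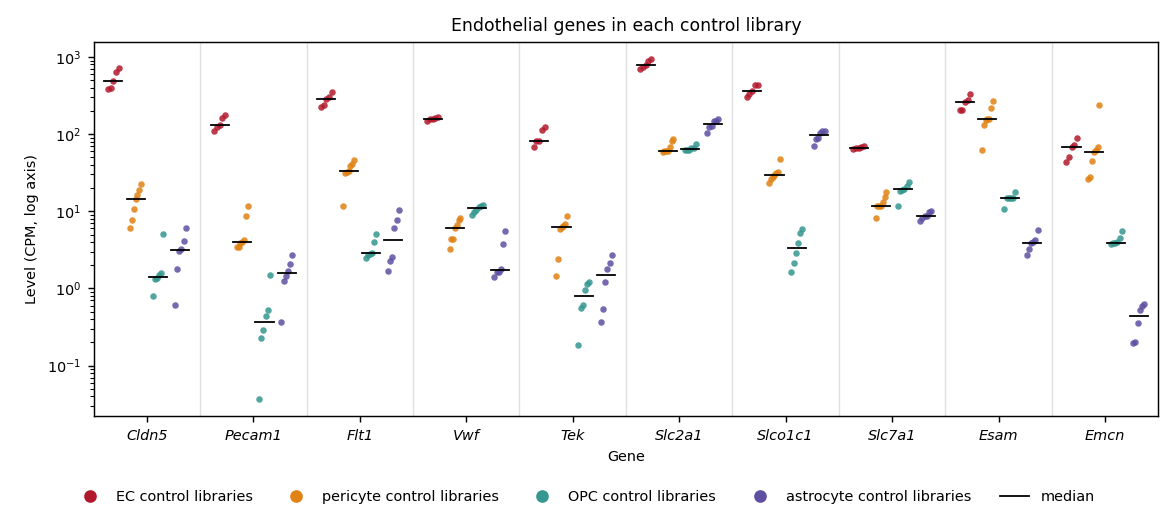
CPM (log axis) of 10 endothelial and barrier genes in each control library of EC, pericyte, OPC and astrocyte, with 1 point a library and a black line at the median. For Cldn5 the EC libraries sit between 388 and 723 CPM, above all 19 other libraries, whereas for Emcn the EC and pericyte libraries overlap.

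The stretch of 250 bases before the start of 3 of these genes is shown because ETS factors are known regulators of endothelial genes and because these genes were far higher in EC than in each other type. Sequences are from RefSeq on GRCm38.p6, read 5′ to 3′ on the gene's strand, and capitals mark the ETS core GGAAG on either strand. The windows are chr16:18776597-18776846 on the plus strand for Cldn5, chr5:147726012-147726261 on the minus strand for Flt1 and chr3:151437632-151437881 on the plus strand for Adgrl4, an adhesion receptor of endothelial cells described with the highest genes.
Cldn5: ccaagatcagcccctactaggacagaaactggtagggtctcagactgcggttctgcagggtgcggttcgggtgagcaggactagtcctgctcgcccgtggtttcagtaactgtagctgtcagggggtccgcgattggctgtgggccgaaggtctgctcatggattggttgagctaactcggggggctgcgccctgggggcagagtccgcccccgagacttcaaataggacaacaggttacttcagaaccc
Flt1: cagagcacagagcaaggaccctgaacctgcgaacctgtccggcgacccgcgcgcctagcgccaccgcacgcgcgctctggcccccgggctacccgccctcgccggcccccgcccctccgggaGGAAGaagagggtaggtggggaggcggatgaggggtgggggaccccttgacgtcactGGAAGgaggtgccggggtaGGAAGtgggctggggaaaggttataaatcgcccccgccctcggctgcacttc
Adgrl4: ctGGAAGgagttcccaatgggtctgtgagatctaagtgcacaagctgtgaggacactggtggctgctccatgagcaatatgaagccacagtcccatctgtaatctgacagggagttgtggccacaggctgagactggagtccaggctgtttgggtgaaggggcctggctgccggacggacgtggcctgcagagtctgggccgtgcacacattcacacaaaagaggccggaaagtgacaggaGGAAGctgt
The stretch of Flt1 held 3 such cores and that of Adgrl4 held 2, while that of Cldn5 held 0. Over 300 bases, 250 before to 50 after the start, GGAAG on either strand was present in 69.9% of 1104 windows of 824 genes higher in EC than in each type, and in 74.1% of 17820 windows of 14027 tested genes. The SOX core ACAAT was in 21.6% of the EC-high windows and 22.3% of all windows. The forkhead motif GTAAACA was in 2.36% and 2.78%, the GATA motif AGATAA in 9.15% and 7.37%, and the GC box GGGCGG in 49.6% and 54.9%. These motifs were searched on both strands, and none of them contains another. The shares are a description only.

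Across all 23060 tested genes, EC libraries differed widely from each type. In the pooled comparison 5944 genes were higher in EC, 25.8% of those tested, and 6165 were lower, 26.7%. Against pericytes 6009 genes were higher, 26.1%, and 7750 lower, 33.6%. Against OPC 6520 were higher, 28.3%, and 5731 lower, 24.9%. Against astrocytes 4657 were higher, 20.2%, and 4947 lower, 21.5%. The split moved with the scaling. With library totals in place of TMM, 33.0% of calls against pericytes were higher in EC, against 43.7% with TMM. The same share was 65.4% against 53.2% for OPC and 63.2% against 48.5% for astrocytes, as the median log2 fold change of all genes shifted by -0.26, 0.26 and 0.22.

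A stricter call asked for an adjusted p under 0.05 against each of the 3 types, in the same direction and with a log2 fold change of at least 1. It found 1244 genes higher in EC, 5.39% of those tested, and 698 lower, 3.03%. Among the higher genes 1098 were protein coding, 880 had a mean of at least 10 CPM in EC and 1016 had every EC library above all 19 others. Among the lower genes 458 were protein coding and 296 had every EC library below all others. Of all tested genes, 7.47% had every EC library above and 2.73% every EC library below the other 19. The same stricter call with EC libraries 3 and 5 alone gave 1044 higher and 439 lower genes, and with EC libraries 7, 9 and 11 alone 1199 and 726. Of the 1244 and 698 genes, 982 and 322 were called with libraries 3 and 5, and 1120 and 504 with libraries 7, 9 and 11.

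The 12 genes furthest above all 3 other types, among those of at least 10 CPM in EC, included surface proteins of the vessel wall, a transporter and a peptide precursor. The largest value of the smallest of the 3 log2 fold changes was that of Srarp. Ly6c1, a GPI-anchored surface protein of brain endothelium, had 992, 804, 622, 667 and 1319.7 CPM in EC libraries 3, 5, 7, 9 and 11, against 10.2 to 28.2 CPM (median 14.2) in pericyte, 0.992 to 4.64 CPM (median 2.83) in OPC and 0.919 to 5.68 CPM (median 3.21) in astrocyte libraries. The Ly6c1 log2 fold change was 5.66 ± 0.39 over pericyte, 8.34 ± 0.47 over OPC and 8.07 ± 0.47 over astrocyte libraries, with a largest adjusted p of 2.91e-11. Ly6a, the stem cell antigen Sca-1 that capillaries also carry, had 1236, 905, 701, 709.9 and 1359 CPM in EC, against 6.20 to 21.1 CPM (median 13.1) in pericyte, 2.01 to 4.95 CPM (median 2.59) in OPC and 2.21 to 6.88 CPM (median 3.30) in astrocyte libraries. The Ly6a log2 fold change was 6.23 ± 0.36 over pericyte, 8.41 ± 0.42 over OPC and 8.08 ± 0.42 over astrocyte libraries, with a largest adjusted p of 1.76e-12. The genes of the Ly6 family are near-identical in parts and may share reads, so both values are uncertain between family members. Slc38a5, a carrier of glutamine and other neutral amino acids, had 66.1, 87.0, 33.7, 40.7 and 140.3 CPM in EC, against 0.887 to 2.27 CPM (median 1.37) in pericyte, 0.266 to 0.734 CPM (median 0.465) in OPC and 0 to 1.02 CPM (median 0.446) in astrocyte libraries. The Slc38a5 log2 fold change was 5.62 ± 0.50 over pericyte, 7.26 ± 0.58 over OPC and 7.20 ± 0.58 over astrocyte libraries, with a largest adjusted p of 1.46e-09.

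Adgrl4, whose promoter is printed above, had 207, 195, 159, 161 and 281 CPM in EC, against 2.09 to 9.89 CPM (median 5.01) in pericyte, 0.412 to 1.83 CPM (median 0.444) in OPC and 0.47 to 3.55 CPM (median 1.98) in astrocyte libraries. EC libraries were above all others and the log2 fold change was 5.22 ± 0.47 over pericyte, 8.18 ± 0.58 over OPC and 6.69 ± 0.54 over astrocyte libraries, with a largest adjusted p of 1.83e-09. Podxl, the sialomucin podocalyxin of the luminal surface, had 184 ± 66.7 CPM in EC, against 5.23 ± 3.12, 1.42 ± 0.842 and 4.15 ± 0.74 CPM in pericyte, OPC and astrocyte libraries. The Podxl log2 fold changes were 5.14, 7.01 and 5.47. Pglyrp1, a secreted peptidoglycan recognition protein, had 135 ± 56.7 CPM in EC, against 3.15 ± 1.62, 0.521 ± 0.237 and 0.775 ± 0.479 CPM in pericyte, OPC and astrocyte libraries and log2 fold changes of 5.42, 8.01 and 7.44. Tac2, the precursor of neurokinin B, had 41.6 ± 5.02 CPM in EC, against 0.928 ± 0.417, 0.377 ± 0.317 and 0.957 ± 0.39 CPM in pericyte, OPC and astrocyte libraries and log2 fold changes of 5.48, 6.79 and 5.44. Neurons also make Tac2, and neuron markers were higher in EC libraries too, as given with those markers. Their part in the Tac2 value was not tested. Srarp had 11.1 ± 5.38 CPM in EC, against 0.103 ± 0.0724, 0.0189 ± 0.0293 and 0.0956 ± 0.134 CPM in pericyte, OPC and astrocyte libraries, and its log2 fold change was 6.71 over pericytes and 6.86 over astrocytes, or, over astrocytes, 7.65 without astrocyte library 9. Apol9b, an apolipoprotein L gene with close paralogs, had 14.3 ± 2.55 CPM in EC, against 0.17 ± 0.273, 0.0209 ± 0.0325 and 0.33 ± 0.197 CPM in pericyte, OPC and astrocyte libraries, and its log2 fold change over pericytes was 6.42, or 7.50 without pericyte library 8. Ctla2a, a cathepsin inhibitor gene with close paralogs, had 32.8 ± 6.70 CPM in EC, against 0.997 ± 0.504, 0.116 ± 0.138 and 0.189 ± 0.146 CPM in pericyte, OPC and astrocyte libraries, and AU021092 had 69.3 ± 15.5 CPM in EC, against 2.03 ± 1.07, 0.112 ± 0.0518 and 0.336 ± 0.233 CPM in pericyte, OPC and astrocyte libraries. The smallest of the 3 log2 fold changes was 5.04 for Ctla2a and 5.09 for AU021092, in both cases over pericytes.

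The carriers of the barrier were mostly high in EC libraries. Of 20 barrier transporters, 16 were higher in EC than in the other types pooled and 0 were lower, against 25.8% and 26.7% of all tested genes, and their median log2 fold change was 2.06. Higher than each type singly were 12 of the 20, against 5.39% of all tested genes. Slc2a1, the glucose transporter GLUT1, had 704, 952, 790.4, 742 and 893 CPM in EC, against 58.4 to 87.6 CPM (median 61.2) in pericyte, 61.8 to 74.6 CPM (median 64.5) in OPC and 103 to 156 CPM (median 136) in astrocyte libraries. Every EC library exceeded every other one. The Slc2a1 log2 fold change was 3.58 ± 0.13 over pericyte, 3.64 ± 0.14 over OPC and 2.60 ± 0.13 over astrocyte libraries, with a largest adjusted p of 3.19e-13. Slco1c1, a thyroid hormone and organic anion carrier that astrocytes also use, had 429, 435, 333, 301 and 366 CPM in EC, against 23.6 to 47.1 CPM (median 29.1) in pericyte, 1.63 to 5.91 CPM (median 3.36) in OPC and 71.2 to 110.4 CPM (median 96.3) in astrocyte libraries. The Slco1c1 log2 fold change was 3.59 ± 0.24 over pericyte, 6.69 ± 0.30 over OPC and 1.98 ± 0.24 over astrocyte libraries, with a largest adjusted p of 3.89e-07. Slco1a4, an organic anion carrier, had 323 ± 75.1 CPM in EC, against 26.4 ± 10.0, 2.93 ± 0.883 and 6.32 ± 3.47 CPM in pericyte, OPC and astrocyte libraries, and its log2 fold changes were 3.61, 6.78 and 5.67. Slc7a1, the cationic amino acid carrier CAT1, had 70.0, 63.4, 66.0, 65.5 and 68.4 CPM in EC, against 8.08 to 17.7 CPM (median 11.8) in pericyte, 11.9 to 24.2 CPM (median 19.3) in OPC and 7.60 to 10.1 CPM (median 8.63) in astrocyte libraries. The Slc7a1 log2 fold change was 2.39 ± 0.16 over pericyte, 1.81 ± 0.17 over OPC and 2.92 ± 0.17 over astrocyte libraries, with a largest adjusted p of 1.62e-09.

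Both drug efflux pumps on the list were high in EC. Abcb1a, the P-glycoprotein, had 84.3 ± 14.2 CPM in EC, against 3.62 ± 1.62, 0.616 ± 0.624 and 0.583 ± 0.474 CPM in pericyte, OPC and astrocyte libraries, with log2 fold changes of 4.54, 7.10 and 7.16, or 7.79 over OPC without OPC library 12. Abcg2, the breast cancer resistance protein, had 184 ± 26.5 CPM in EC, against 30.0 ± 20.6, 41.2 ± 5.02 and 8.07 ± 1.92 CPM in pericyte, OPC and astrocyte libraries, with log2 fold changes of 2.62, 2.16 and 4.51. Slc7a5, the large neutral amino acid carrier LAT1, had log2 fold changes of 2.98, 2.31 and 2.11, whereas its partner subunit Slc3a2 passed only over OPC, with log2 fold changes of 0.10, 0.94 and 0.02. Slc19a3, a thiamine carrier, and Slc40a1, the iron exporter ferroportin, were higher than in each type, with log2 fold changes of 3.54, 5.68 and 5.03 for Slc19a3 and 2.31, 4.06 and 3.34 for Slc40a1. Some transporters known from barrier endothelium were lower in EC than in 1 other type. Mfsd2a, the carrier of lysolipids that carry docosahexaenoic acid, had 59.9, 101, 56.8, 67.1 and 87.4 CPM in EC, against 4.88 to 23.0 CPM (median 20.0) in pericyte, 183 to 356 CPM (median 324) in OPC and 36.2 to 83.3 CPM (median 53.1) in astrocyte libraries. All OPC libraries exceeded all EC libraries, and the log2 fold change over OPC was -2.03 ± 0.29, adjusted p = 1.67e-06, whereas over pericytes it was 2.14 ± 0.27, adjusted p = 3.68e-07. Slc22a8, the organic anion carrier OAT3, was lower than in pericytes at a log2 fold change of -2.10 ± 0.40, adjusted p = 9.33e-05, and Slc38a3 was lower than in astrocytes at a log2 fold change of -1.35 ± 0.24, adjusted p = 5.30e-05. Lrp8, a lipoprotein receptor, was also lower than in astrocytes at a log2 fold change of -1.01 ± 0.25, adjusted p = 0.00233. Tfrc, the transferrin receptor, did not pass in any comparison, with log2 fold changes of 0.40, 0.43 and 0.41, though its pooled value passed in 12 of the 24 fits that left out 1 library.

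Junction genes were divided between endothelial and widely used members. Of 16 genes, 11 were higher in EC than in the other types pooled and 3 were lower, against 25.8% and 26.7% of all tested genes. The median log2 fold change was 1.78. Higher than each type singly were 6, against 5.39% of all tested genes, namely Cldn5, Cdh5, Pecam1, Ocln, F11r and Lsr. Ocln, the tight junction protein occludin, had 68.6, 81.1, 59.9, 63.2 and 82.9 CPM in EC, against 2.71 to 8.09 CPM (median 5.70) in pericyte, 0.832 to 3.09 CPM (median 2.17) in OPC and 2.44 to 6.70 CPM (median 5.48) in astrocyte libraries, with no overlap. The Ocln log2 fold change was 3.58 ± 0.29 over pericyte, 5.02 ± 0.33 over OPC and 3.79 ± 0.31 over astrocyte libraries, with a largest adjusted p of 4.04e-10. Lsr, the angulin of tricellular junctions, had 45.1, 48.0, 36.7, 44.6 and 67.0 CPM in EC, against 2.59 to 4.71 CPM (median 3.63) in pericyte, 0.23 to 0.756 CPM (median 0.575) in OPC and 0.848 to 1.68 CPM (median 1.04) in astrocyte libraries. The Lsr log2 fold change was 3.72 ± 0.25 over pericyte, 6.44 ± 0.30 over OPC and 5.33 ± 0.29 over astrocyte libraries, with a largest adjusted p of 1.57e-11. Lower in the pooled comparison were, among others, the scaffold gene Tjp1, which encodes ZO-1, and the adhesion gene Jam3, with log2 fold changes of -0.80 and -1.23. Cldn12 had log2 fold changes of 0.86, 0.11 and -0.06 over pericyte, OPC and astrocyte libraries and passed singly only over pericytes.

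Vesicle transport genes had members on both sides. Of 16 genes of caveolae and endocytosis, 7 were higher in the pooled comparison and 2 were lower, against 25.8% and 26.7% of all tested genes. Higher than in each type was 1, a share of 6.25% that lay near the 5.39% of all tested genes. That gene was Cavin2, a caveolar coat protein, with 114, 119, 88.2, 89.0 and 112 CPM in EC, against 4.08 to 13.4 CPM (median 6.69) in pericyte, 8.71 to 14.1 CPM (median 12.2) in OPC and 2.29 to 4.46 CPM (median 3.41) in astrocyte libraries. The Cavin2 log2 fold change was 3.74 ± 0.23 over pericyte, 3.14 ± 0.24 over OPC and 4.96 ± 0.26 over astrocyte libraries, with a largest adjusted p of 5.06e-11. Cav1, the main caveolin, had 153 ± 30.8 CPM in EC, against 18.5 ± 4.82, 289 ± 17.2 and 77.8 ± 34.8 CPM in pericyte, OPC and astrocyte libraries. It was higher than in pericytes at a log2 fold change of 3.05 ± 0.23, adjusted p = 1.60e-10 and lower than in OPC at a log2 fold change of -0.92 ± 0.24, adjusted p = 0.00208, or 0.0547 with EC libraries 3 and 5 alone. Cavin1, a further coat protein, had 113 ± 26.9 CPM in EC, against 85.9 ± 59.1, 4.31 ± 1.01 and 29.1 ± 13.0 CPM in pericyte, OPC and astrocyte libraries, and its log2 fold change over pericytes was 0.39 ± 0.31, adjusted p = 0.279, or 0.82 with an adjusted p of 0.00442 without pericyte library 6. Lrp1, an endocytic receptor for lipoproteins and amyloid, had 84.2, 93.0, 98.5, 108 and 73.7 CPM in EC, against 293 to 783 CPM (median 369) in pericyte, 348 to 584 CPM (median 514) in OPC and 273 to 1401 CPM (median 383) in astrocyte libraries. All EC libraries were below all others, and the log2 fold change was -2.18 ± 0.37 over pericyte, -2.44 ± 0.38 over OPC and -2.85 ± 0.38 over astrocyte libraries, with a largest adjusted p of 2.20e-05. Over astrocytes it was -1.88 without pericyte library 6 and astrocyte libraries 6 and 10. Dnm2, the GTPase dynamin 2 that cuts vesicles free, passed as lower in all 3 comparisons, with log2 fold changes of -0.75, -2.25 and -0.87, of which that over OPC was past -1. Plvap, the diaphragm protein of leaky vessels, had 13.8 ± 3.07 CPM in EC, against 9.84 ± 11.6, 3.21 ± 0.449 and 7.51 ± 1.77 CPM in pericyte, OPC and astrocyte libraries and passed over OPC and not over pericytes or astrocytes, with log2 fold changes of 0.49, 2.10 and 0.87. Without pericyte library 6 it was higher than in both, at 1.32 with an adjusted p of 5.84e-05 over pericytes and 0.88 with an adjusted p of 0.00447 over astrocytes on the log2 scale.

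The growth factor receptors of vessels were high in EC libraries, while Notch1, Hey2 and Jag1 were lower there than in pericytes. Of 27 genes of VEGF, angiopoietin and Notch signalling, 18 were higher in the pooled comparison, 7 were lower and the median log2 fold change was 1.59. Of all tested genes 25.8% were higher and 26.7% lower, and the 25.9% of the list that were lower lay near that share. Higher than each type were 10 of the 27, against 5.39% of all tested genes. They were the receptors Flt1, Kdr, Flt4, Tek, Tie1, Acvrl1, Robo4 and Adgrl4 and the Notch ligands Dll4 and Jag2. Kdr, the main VEGF receptor, had 43.7, 56.9, 29.1, 34.1 and 65.8 CPM in EC, against 4.73 to 13.9 CPM (median 6.70) in pericyte, 0.888 to 2.91 CPM (median 1.69) in OPC and 1.13 to 4.33 CPM (median 1.71) in astrocyte libraries. The Kdr log2 fold change was 2.55 ± 0.34 over pericyte, 4.78 ± 0.40 over OPC and 4.48 ± 0.39 over astrocyte libraries, with a largest adjusted p of 9.89e-07. Tek had 81.4, 125, 81.5, 67.4 and 112 CPM in EC, against 1.44 to 8.64 CPM (median 6.23) in pericyte, 0.185 to 1.22 CPM (median 0.787) in OPC and 0.368 to 2.70 CPM (median 1.49) in astrocyte libraries. EC libraries did not overlap any other, and the log2 fold change was 4.11 ± 0.45 over pericyte, 6.90 ± 0.55 over OPC and 6.00 ± 0.52 over astrocyte libraries, with a largest adjusted p of 4.46e-08. Acvrl1, the receptor ALK1 for BMP9, had 147, 174, 112, 111 and 181 CPM in EC, against 12.8 to 71.0 CPM (median 24.0) in pericyte, 1.26 to 3.07 CPM (median 2.91) in OPC and 5.80 to 11.0 CPM (median 7.69) in astrocyte libraries. The Acvrl1 log2 fold change was 2.36 ± 0.32 over pericyte, 5.85 ± 0.39 over OPC and 4.13 ± 0.36 over astrocyte libraries, with a largest adjusted p of 1.13e-06. Robo4 and Tie1, which stabilise vessels, had log2 fold changes of 4.14, 7.37 and 6.61 for Robo4 (8.13 over OPC without OPC library 12, and 7.31 over astrocytes without astrocyte library 6) and 3.27, 6.97 and 6.32 for Tie1. Dll4, the Notch ligand of tip and arterial cells, had 16.6 ± 3.20 CPM in EC, against 2.02 ± 1.49, 0.313 ± 0.396 and 0.485 ± 0.279 CPM in pericyte, OPC and astrocyte libraries and log2 fold changes of 3.04, 5.73 and 5.09, or 6.52 over OPC without OPC library 12.

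Lower in EC than in each type were 2 of the 27, Notch1 and Hey2, against 3.03% of all genes tested. Notch1, the receptor, had 12.8, 15.8, 12.4, 16.6 and 13.8 CPM in EC, against 25.9 to 89.4 CPM (median 60.4) in pericyte, 33.1 to 73.6 CPM (median 58.0) in OPC and 39.9 to 93.2 CPM (median 86.7) in astrocyte libraries. The Notch1 log2 fold change was -2.13 ± 0.26 over pericyte, -1.98 ± 0.26 over OPC and -2.47 ± 0.27 over astrocyte libraries, with a largest adjusted p of 5.62e-07. Hey2, a Notch target, had 2.19 ± 0.345 CPM in EC, against 24.7 ± 8.49, 18.6 ± 2.99 and 7.86 ± 3.34 CPM in pericyte, OPC and astrocyte libraries, with log2 fold changes of -3.49, -3.08 and -1.84. Hey1, the related target, had 95.6 ± 5.71 CPM in EC, against 27.1 ± 4.88, 65.9 ± 4.45 and 186 ± 53.4 CPM in pericyte, OPC and astrocyte libraries, higher than in pericytes at a log2 fold change of 1.82 ± 0.16, adjusted p = 1.18e-09 and lower than in astrocytes at a log2 fold change of -0.96 ± 0.17, adjusted p = 4.78e-05. The ligands Angpt1 and Angpt2, which signal to TIE2, had log2 fold changes over pericytes of -0.95 ± 0.39, adjusted p = 0.0405 for Angpt1 and -1.51 ± 0.46, adjusted p = 0.00685 for Angpt2. The Angpt1 value missed the threshold in 16 of the 24 fits that left out 1 library, and was -0.29 with an adjusted p of 0.314 without pericyte library 6. With EC libraries 3 and 5 alone the Angpt2 value had an adjusted p of 0.189. Angpt2 was higher in EC than in astrocytes, at a log2 fold change of 5.82 ± 0.58, adjusted p = 1.17e-08, or 6.46 without astrocyte library 5 and 6.42 without astrocyte library 9. Jag1 was lower than in pericytes at a log2 fold change of -2.97 ± 0.27, adjusted p = 2.08e-09. Nrp1, a VEGF co-receptor, passed over OPC and not over pericytes or astrocytes, with log2 fold changes of -0.67, 2.93 and 0.75. Without pericyte library 6 the log2 fold change was 0.08 over pericytes, and that over astrocytes passed at an adjusted p of 0.00633.

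**Figure D3:**
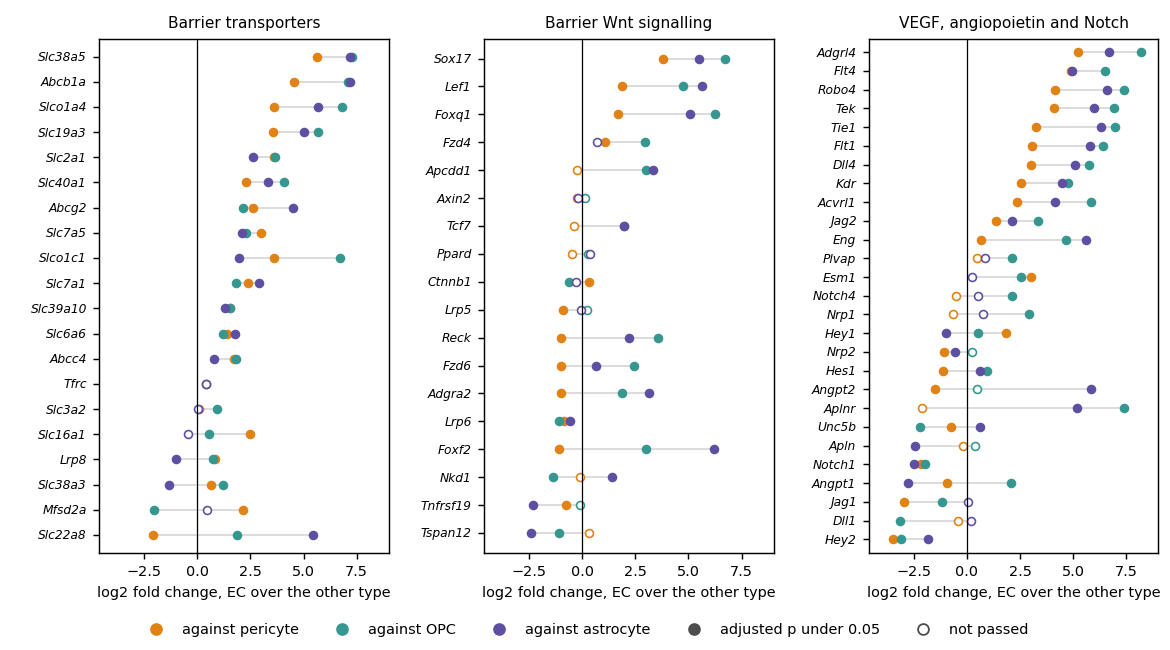
Log2 fold changes of EC over pericyte, OPC and astrocyte control libraries for the genes of 3 lists, barrier transporters, barrier Wnt signalling and VEGF, angiopoietin and Notch, with filled points at an adjusted p under 0.05 and open points where the test did not pass. Of the 19 Wnt genes, of which 1 is not drawn, 6 are higher and 7 are lower in EC than in pericytes, whereas 11 are higher than in OPC.

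For Wnt signalling at the barrier, EC libraries had more genes higher than lower against OPC and astrocytes, and stood on both sides of pericytes. Of 19 genes, 11 were higher in the pooled comparison and 3 were lower, against 25.8% and 26.7% of all tested genes. The median log2 fold change was 1.20. Against pericytes 6 were higher and 7 lower, where 26.1% and 33.6% of all genes tested were, with a median of -0.24. Among those higher than in each type were the nuclear effector Lef1 and the transcription factors Sox17 and Foxq1. Lef1 had 43.6, 42.0, 33.9, 34.5 and 40.5 CPM in EC, against 3.70 to 17.6 CPM (median 9.83) in pericyte, 0.697 to 1.82 CPM (median 1.53) in OPC and 0.449 to 1.10 CPM (median 0.798) in astrocyte libraries. The Lef1 log2 fold change was 1.86 ± 0.29 over pericyte, 4.73 ± 0.35 over OPC and 5.65 ± 0.37 over astrocyte libraries, with a largest adjusted p of 1.07e-05. Foxq1 had 35.5, 26.5, 21.6, 23.1 and 31.4 CPM in EC, against 3.94 to 14.3 CPM (median 8.37) in pericyte, 0.251 to 0.498 CPM (median 0.345) in OPC and 0.296 to 1.20 CPM (median 0.86) in astrocyte libraries. The Foxq1 log2 fold change was 1.68 ± 0.29 over pericyte, 6.24 ± 0.37 over OPC and 5.08 ± 0.35 over astrocyte libraries, with a largest adjusted p of 3.03e-05. Sox17 had 74.7 ± 9.11 CPM in EC, against 5.32 ± 1.89, 0.706 ± 0.14 and 1.64 ± 1.28 CPM in pericyte, OPC and astrocyte libraries and log2 fold changes of 3.81, 6.72 and 5.50.

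The receptor complex for Wnt7 ligands, Reck and Adgra2 (GPR124), was lower in EC than in pericytes. Reck had 35.9 ± 4.33 CPM in EC, against 70.4 ± 25.7, 3.00 ± 1.11 and 7.66 ± 1.51 CPM in pericyte, OPC and astrocyte libraries, with a log2 fold change over pericytes of -0.97 ± 0.23, adjusted p = 9.62e-04, over OPC of 3.58 ± 0.25, adjusted p = 1.38e-11 and over astrocytes of 2.23 ± 0.24, adjusted p = 4.27e-08. Adgra2 had 9.52 ± 1.68 CPM in EC, against 19.1 ± 7.09, 2.63 ± 0.674 and 1.08 ± 0.572 CPM in pericyte, OPC and astrocyte libraries, with log2 fold changes of -1.01, 1.85 and 3.14, all 3 past the test. With EC libraries 3 and 5 alone the values over pericytes missed the threshold, at adjusted p-values of 0.0843 for Reck and 0.141 for Adgra2. The Wnt inhibitor Apcdd1, a known target in barrier endothelium, had 99.9 ± 14.1 CPM in EC, against 117 ± 50.8, 12.6 ± 3.77 and 9.75 ± 4.56 CPM in pericyte, OPC and astrocyte libraries and did not pass over pericytes, at a log2 fold change of -0.22 ± 0.31, adjusted p = 0.551. Axin2, the general target of the pathway, did not pass in any comparison, with log2 fold changes of -0.24, 0.14 and -0.18. Fzd4, the receptor for norrin, had log2 fold changes of 1.08, 2.94 and 0.70 and passed over pericytes and OPC. Over pericytes it had an adjusted p of 0.0501 without EC library 5 and a log2 fold change of 1.78 without pericyte library 6, and over astrocytes an adjusted p of 0.027 without pericyte library 6. Its co-receptor Tspan12 was lower than in astrocytes, at a log2 fold change of -2.42 ± 0.21, adjusted p = 1.38e-09.

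Transcription factors of endothelial identity were mostly higher in EC. Of 25 factors, 22 were higher in the pooled comparison and 0 were lower, against 25.8% and 26.7% of all tested genes. The median log2 fold change of the 25 was 3.28. Higher than in each type were 14, against 5.39% of all tested genes. Klf2, the factor induced by blood flow, had 219, 228, 245, 171 and 118 CPM in EC, against 13.8 to 41.6 CPM (median 16.4) in pericyte, 1.33 to 1.71 CPM (median 1.46) in OPC and 3.74 to 5.07 CPM (median 3.90) in astrocyte libraries. The Klf2 log2 fold change was 3.10 ± 0.25 over pericyte, 7.04 ± 0.32 over OPC and 5.57 ± 0.30 over astrocyte libraries, with a largest adjusted p of 4.90e-10. Sox18 had 83.6, 90.6, 74.4, 92.4 and 109 CPM in EC, against 1.73 to 6.02 CPM (median 3.42) in pericyte, 0.0924 to 0.955 CPM (median 0.178) in OPC and 0.163 to 1.78 CPM (median 0.896) in astrocyte libraries, with no overlap. The Sox18 log2 fold change was 4.73 ± 0.49 over pericyte, 8.20 ± 0.62 over OPC and 6.59 ± 0.57 over astrocyte libraries, with a largest adjusted p of 1.68e-08, and the value over OPC was 8.92 without OPC library 12. Sox7 and Gata2 had log2 fold changes of 3.63, 6.82 and 3.10 for Sox7 and 3.50, 6.84 and 5.94 for Gata2 over pericyte, OPC and astrocyte libraries. Over pericytes these were 4.24 for Sox7 without pericyte library 5 and 4.15 for Gata2 without pericyte library 6. Fli1, an ETS factor, had log2 fold changes of 1.46, 3.58 and 2.89. Of the 25 factors, 17 were higher in EC than in pericytes and 4 lower, against 26.1% and 33.6% of all tested genes. The 4 lower were Ets1, Foxc1, Nr2f2 and Tbx3, with log2 fold changes of -1.18, -3.21, -3.39 and -2.46. In the pooled comparison Ets1, Foxc1 and Tbx3 were nonetheless called higher in EC, at log2 fold changes of 1.02, 1.03 and 1.21. Nr2f2 (COUP-TFII), the factor of venous identity, had 9.69 ± 1.29 CPM in EC, against 102 ± 59.9, 3.48 ± 0.97 and 0.896 ± 0.383 CPM in pericyte, OPC and astrocyte libraries.

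Genes known to mark arterial, capillary and venous endothelium were all represented among those high in EC. These lists also hold genes abundant in other types. The median summed level of the arterial list was 2350 CPM in EC and 22257 CPM in astrocyte libraries. For the capillary list it was 3106 CPM in EC and 3332 CPM in pericyte libraries. For the venous list it was highest in EC, at 679 CPM, against 498 CPM in pericyte libraries. The 16 arterial genes split into 9 higher and 4 lower in the pooled comparison, against 25.8% and 26.7% of all tested genes. Their median log2 fold change was 0.51, and 4 were higher than in each type, against 5.39% of all tested genes. Of all tested genes 26.1% were higher than in pericytes and 33.6% lower. Against pericytes 6 were higher and 8 lower, with a median log2 fold change of -0.44, or 7 and 7 with a median of 0.05 without pericyte library 6. Gkn3 had 62.1, 51.4, 34.0, 24.6 and 58.1 CPM in EC, against 0.707 to 2.49 CPM (median 2.32) in pericyte, 0.166 to 0.955 CPM (median 0.413) in OPC and 0.188 to 0.401 CPM (median 0.252) in astrocyte libraries. EC and other libraries did not overlap, and its log2 fold change was 4.68 ± 0.38 over pericyte, 6.67 ± 0.45 over OPC and 7.38 ± 0.47 over astrocyte libraries, with a largest adjusted p of 3.52e-10. Bmx, a kinase of arterial endothelium, had 6.63 ± 1.46 CPM in EC, against 0.383 ± 0.404, 0.208 ± 0.219 and 0.894 ± 0.498 CPM in pericyte, OPC and astrocyte libraries and log2 fold changes of 4.11, 4.99 and 2.89. Without pericyte library 6 the value over pericytes was 4.78, and without OPC library 12 that over OPC was 5.59. Sema3g, a semaphorin of arteries, had 3.46, 3.45, 6.54, 4.18 and 4.30 CPM in EC, against 0 to 0.843 CPM (median 0.187) in pericyte libraries. It had 3 counts over the OPC libraries and 0 over the astrocyte libraries. Taken against the floor of 3 counts over that group, it was at least 436-fold higher in EC than in astrocytes. Stmn2 was the other gene, and it is also a neuron marker, with log2 fold changes of 2.87, 4.74 and 2.55. Fbln5, an elastic fibre protein, was lower than in each type, with log2 fold changes of -3.67, -1.10 and -1.58 and an adjusted p over OPC of 0.0806 with EC libraries 3 and 5 alone. Gja4 (connexin 37) was lower than in pericytes, at a log2 fold change of -5.82 ± 0.34, adjusted p = 1.84e-12.

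Of 14 capillary genes, 9 were higher and 3 lower in the pooled comparison, against 25.8% and 26.7% of all tested genes. Their median log2 fold change was 1.50, and 4 were higher than in each type, against 5.39% of all tested genes. Of all tested genes 26.1% were higher than in pericytes and 33.6% lower. Against pericytes 6 were higher and 5 lower, with a median of 0.20, or 0.90 without pericyte library 6. Itm2a had 1627, 1818, 1037, 844 and 1488 CPM in EC, against 106 to 246 CPM (median 191) in pericyte, 42.6 to 69.7 CPM (median 50.8) in OPC and 13.0 to 33.2 CPM (median 22.0) in astrocyte libraries. The Itm2a log2 fold change was 2.98 ± 0.24 over pericyte, 4.68 ± 0.27 over OPC and 5.93 ± 0.29 over astrocyte libraries, with a largest adjusted p of 3.04e-10. Spock2, a proteoglycan gene, had 388 ± 25.9 CPM in EC, against 36.9 ± 14.5, 68.1 ± 5.69 and 52.8 ± 12.3 CPM in pericyte, OPC and astrocyte libraries and log2 fold changes of 3.39, 2.51 and 2.88. The remaining capillary genes higher than in each type were Kdr and Slc38a5. Rgcc was lower than in each type, at log2 fold changes of -1.08, -2.46 and -1.92. The value over pericytes lay just inside the minimum fold, which it missed without pericyte library 6, and its adjusted p was 0.0533 with EC libraries 3 and 5 alone. Of 13 tested venous genes, 9 were higher and 1 lower in the pooled comparison, against 25.8% and 26.7% of all tested genes. Their median log2 fold change was 1.65. Slc38a5, Vwf, Ackr1 and Tmsb10 were higher than in each type, where 5.39% of all tested genes were. Against pericytes 5 were higher and 4 lower, with a median of -0.15, or 7 and 4 with a median of 1.09 without pericyte library 6. Ackr1, the chemokine-binding Duffy antigen of venules, had 28.4, 21.2, 19.2, 52.5 and 23.9 CPM in EC, against 1.92 to 5.30 CPM (median 3.39) in pericyte, 2.11 to 4.12 CPM (median 2.61) in OPC and 2.39 to 4.03 CPM (median 3.10) in astrocyte libraries. The Ackr1 log2 fold change was 3.04 ± 0.28 over pericyte, 3.37 ± 0.30 over OPC and 3.24 ± 0.30 over astrocyte libraries, with a largest adjusted p of 2.94e-09. Tmsb10, an actin-binding thymosin, had 101 ± 15.3 CPM in EC, against 44.2 ± 25.5, 20.5 ± 4.24 and 22.4 ± 6.66 CPM in pericyte, OPC and astrocyte libraries and log2 fold changes of 1.19, 2.29 and 2.17. Selp, the P-selectin gene, did not pass the filter on low counts.

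Adhesion genes for leukocytes included members high in EC and members that did not pass. Of 13 tested, 7 were higher and 1 was lower in the pooled comparison, against 25.8% and 26.7% of all tested genes. The median log2 fold change was 1.15. Icam2, Cd34, Pecam1 and Ackr1 were higher than in each type, where 5.39% of all tested genes were. Icam2, the constitutive ligand of the integrin LFA-1, had 62.2, 55.6, 39.5, 42.8 and 64.5 CPM in EC, against 0.836 to 3.78 CPM (median 1.19) in pericyte, 0 to 0.373 CPM (median 0.187) in OPC and 0.109 to 0.984 CPM (median 0.286) in astrocyte libraries. The Icam2 log2 fold change was 4.93 ± 0.49 over pericyte, 8.17 ± 0.62 over OPC and 6.91 ± 0.58 over astrocyte libraries, with a largest adjusted p of 1.04e-08. Cd34, a surface sialomucin, had 178, 186, 161, 157 and 229 CPM in EC, against 11.8 to 45.1 CPM (median 22.2) in pericyte, 2.44 to 9.40 CPM (median 3.15) in OPC and 10.0 to 19.4 CPM (median 15.6) in astrocyte libraries. The Cd34 log2 fold change was 2.76 ± 0.30 over pericyte, 5.48 ± 0.36 over OPC and 3.59 ± 0.33 over astrocyte libraries, with a largest adjusted p of 4.73e-08. The inducible genes Icam1 and Vcam1 passed over OPC and not over pericytes or astrocytes, with log2 fold changes of 0.96, 4.77 and 0.63 for Icam1 and -0.80, 2.75 and -0.83 for Vcam1. Without pericyte library 6 both were higher than in pericytes, at 1.50 with an adjusted p of 0.00224 for Icam1 and 1.09 with an adjusted p of 3.78e-04 for Vcam1 on the log2 scale, so that the direction of the Vcam1 value turned. Vcam1 then also passed as lower than in astrocytes, at -0.83 with an adjusted p of 0.00624.

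Of 23 genes that act on vessel tone, clotting or shear sensing, 11 were higher and 5 lower in the pooled comparison. Of all tested genes 25.8% were higher and 26.7% lower. The median log2 fold change of the 23 was 0.87. Nos3, the endothelial nitric oxide synthase, had 24.9, 27.9, 19.8, 19.8 and 37.2 CPM in EC, against 2.72 to 6.55 CPM (median 3.38) in pericyte, 0.496 to 1.18 CPM (median 0.898) in OPC and 2.11 to 2.70 CPM (median 2.44) in astrocyte libraries. The Nos3 log2 fold change was 2.82 ± 0.23 over pericyte, 4.90 ± 0.27 over OPC and 3.42 ± 0.25 over astrocyte libraries, with a largest adjusted p of 5.91e-10. Edn1, the vasoconstrictor endothelin 1, had 18.3 ± 4.99 CPM in EC, against 0.899 ± 0.676, 0.107 ± 0.0665 and 0.334 ± 0.162 CPM in pericyte, OPC and astrocyte libraries and log2 fold changes of 4.34, 7.41 and 5.78. Klf4 and Ramp2, the partner of adrenomedullin and calcitonin receptors, were also higher than in each type, with log2 fold changes of 3.33, 6.22 and 5.08 for Klf4 and 1.51, 2.78 and 3.05 for Ramp2. Calcrl, the receptor that Ramp2 serves, was lower than in pericytes and OPC and higher than in astrocytes, at log2 fold changes of -1.47, -2.48 and 2.42. The clotting regulators Tfpi and Plat were lower than in pericytes, at a log2 fold change of -5.04 ± 0.35, adjusted p = 2.46e-11 for Tfpi and -2.02 ± 0.22, adjusted p = 5.52e-08 for Plat. Thbd, thrombomodulin, had 43.6 ± 12.4 CPM in EC, against 41.2 ± 19.0, 1.49 ± 0.475 and 1.49 ± 0.796 CPM in pericyte, OPC and astrocyte libraries and did not pass over pericytes, at a log2 fold change of 0.08 ± 0.33, adjusted p = 0.844. Ednrb, the endothelin receptor B, was lower than in OPC and astrocytes, at log2 fold changes of -3.89 and -4.54, and did not pass over pericytes.

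The basement membrane genes were mostly lower in EC than in pericytes. Of 18 genes, 13 were lower and 3 higher than in pericytes, against 33.6% of all tested genes lower and 26.1% higher, with a median log2 fold change of -2.41. In the pooled comparison 4 were higher and 8 lower, against 25.8% and 26.7% of all tested genes. The collagen IV genes Col4a1 and Col4a2 had 22.3 ± 4.79 CPM and 22.5 ± 3.51 CPM in EC, against 193 ± 104 CPM and 114 ± 57.7 CPM in pericyte libraries. Their log2 fold changes over pericytes were -3.11 ± 0.27, adjusted p = 1.04e-09 and -2.34 ± 0.26, adjusted p = 5.83e-08. Nid1, nidogen, was lower at a log2 fold change of -5.99 ± 0.39, adjusted p = 9.17e-12, and the laminin genes Lamc1 and Lama2 were lower at log2 fold changes of -3.69 and -4.16. Higher in EC than in each type was 1 of the 18, a share of 5.56% that lay near the 5.39% of all tested genes. That gene was Fn1, fibronectin, with 42.8, 36.0, 32.0, 40.5 and 57.6 CPM in EC, against 3.88 to 52.6 CPM (median 11.9) in pericyte, 1.22 to 2.27 CPM (median 1.83) in OPC and 1.29 to 4.52 CPM (median 2.30) in astrocyte libraries. The Fn1 log2 fold change was 1.29 ± 0.43 over pericyte, 4.52 ± 0.50 over OPC and 3.94 ± 0.49 over astrocyte libraries, with a largest adjusted p of 0.0121, and the value over pericytes was 1.90 without pericyte library 8, whose level overlapped the EC libraries. It missed the threshold over pericytes with library totals as the scaling, at an adjusted p of 0.056, and with EC libraries 3 and 5 alone, at 0.0923. Itga6, a laminin receptor, had log2 fold changes of 2.00, 4.52 and -0.09 and did not pass over astrocytes.

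The 8 genes furthest below all 3 other types included mural and matrix genes and 1 gene of the OPC lineage. Pdgfrb, the PDGF receptor of pericytes, lies at chr18:61045150-61085061 on the plus strand. It had 3.34, 6.76, 1.56, 1.86 and 2.62 CPM in EC libraries 3, 5, 7, 9 and 11, against 447 to 958 CPM (median 691) in pericyte, 21.9 to 80.9 CPM (median 43.5) in OPC and 32.9 to 77.6 CPM (median 62.9) in astrocyte libraries. The Pdgfrb log2 fold change was -7.73 ± 0.45 over pericyte, -3.83 ± 0.37 over OPC and -4.20 ± 0.38 over astrocyte libraries, with a largest adjusted p of 3.71e-09. With EC libraries 3 and 5 alone the pooled value was -4.56, and with EC libraries 7, 9 and 11 alone it was -5.95, against -5.25 with all 5. Ednra, the endothelin receptor A of smooth muscle, had 1.62, 4.13, 1.25, 2.69 and 3.84 CPM in EC, against 51.0 to 115 CPM (median 70.3) in pericyte, 22.2 to 35.9 CPM (median 24.9) in OPC and 22.8 to 49.7 CPM (median 35.5) in astrocyte libraries. The Ednra log2 fold change was -4.85 ± 0.32 over pericyte, -3.32 ± 0.30 over OPC and -3.74 ± 0.31 over astrocyte libraries, with a largest adjusted p of 1.04e-09. Bgn, the proteoglycan biglycan, had 6.16, 5.79, 3.96, 3.96 and 11.6 CPM in EC, against 245 to 896 CPM (median 389) in pericyte, 42.3 to 59.8 CPM (median 49.3) in OPC and 35.4 to 75.0 CPM (median 62.1) in astrocyte libraries. The Bgn log2 fold change was -6.16 ± 0.37 over pericyte, -3.03 ± 0.32 over OPC and -3.26 ± 0.32 over astrocyte libraries, with a largest adjusted p of 1.39e-08. Gpr17, a receptor of committed OPC, had 1.25, 3.27, 2.30, 2.14 and 2.05 CPM in EC, against 18.9 to 51.8 CPM (median 33.7) in pericyte, 1181 to 2518 CPM (median 2080.2) in OPC and 10.9 to 30.1 CPM (median 17.2) in astrocyte libraries. The Gpr17 log2 fold change was -3.97 ± 0.32 over pericyte, -9.83 ± 0.42 over OPC and -3.11 ± 0.31 over astrocyte libraries, with a largest adjusted p of 1.20e-08.

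Cpxm1, a carboxypeptidase-like protein, had 2.76 ± 1.15 CPM in EC, against 157 ± 329.5, 42.8 ± 4.36 and 21.9 ± 6.59 CPM in pericyte, OPC and astrocyte libraries. Its log2 fold change over pericytes was -5.83 ± 0.93, adjusted p = 1.12e-05, and -3.57 without pericyte library 6, in which it reached 904 CPM. Mfap2, a microfibril protein, had 3.39 ± 0.635 CPM in EC, against 62.4 ± 70.3, 31.7 ± 8.29 and 23.6 ± 4.36 CPM in pericyte, OPC and astrocyte libraries, with log2 fold changes of -4.20, -3.23 and -2.80, and -3.44 over pericytes without that library. Col11a2, a fibrillar collagen chain, and Carmil1, a regulator of actin capping, had log2 fold changes of -3.22, -3.99 and -3.75 for Col11a2 and -2.85, -3.56 and -2.88 for Carmil1. EC libraries lay below all 19 others for each of these 8 genes, against 2.73% of all tested genes. The 8 were picked for their distance below each type, so this separation largely follows from the choice.

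**Figure D4:**
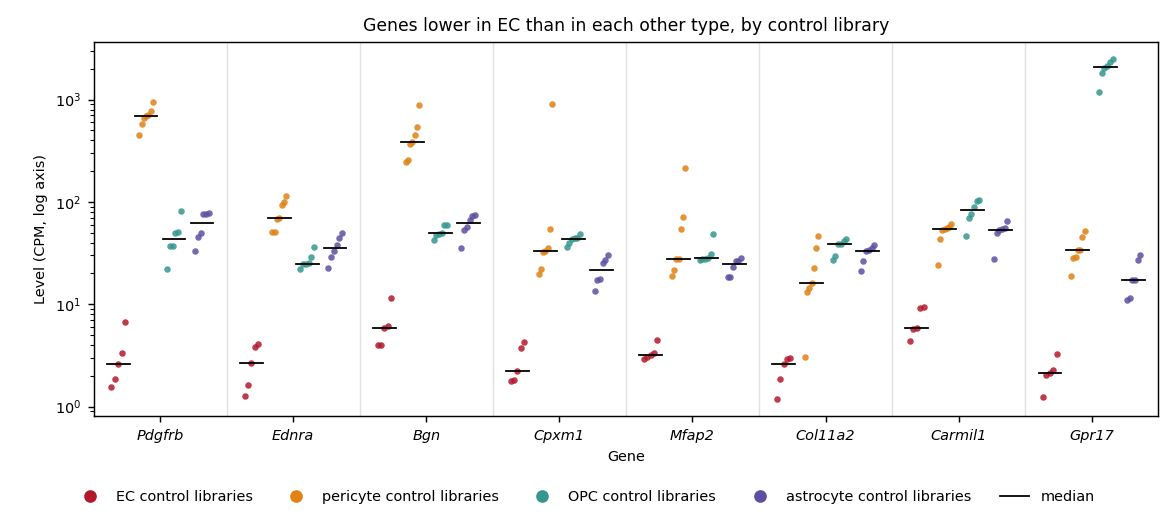
CPM (log axis) of the 8 genes furthest below all 3 other types in each control library of EC, pericyte, OPC and astrocyte, with 1 point a library and a black line at the median. The EC libraries sit between 1.25 and 3.27 CPM for Gpr17, below all 19 other libraries, and the same holds for the other genes shown.

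Other mural and fibroblast genes were lower in EC in the pooled comparison as well, and smooth muscle and fibroblast genes mainly against pericytes. All 14 pericyte markers were lower in EC than in the other types pooled, against 26.7% of all genes lower, with a median log2 fold change of -4.29. Lower than in each type were 3, against 3.03% of all tested genes. Cspg4, the NG2 proteoglycan, had 2.58, 2.62, 3.55, 2.91 and 3.35 CPM in EC, against 47.8 to 235 CPM (median 149.8) in pericyte, 348 to 460.3 CPM (median 363) in OPC and 6.10 to 15.5 CPM (median 7.53) in astrocyte libraries. The Cspg4 log2 fold change was -5.69 ± 0.35 over pericyte, -6.98 ± 0.38 over OPC and -1.68 ± 0.30 over astrocyte libraries, with a largest adjusted p of 5.76e-05. Kcnj8, a potassium channel of pericytes, had 1.40 ± 0.541 CPM in EC, against 535 ± 230.0, 44.1 ± 7.98 and 1.08 ± 0.358 CPM in pericyte, OPC and astrocyte libraries. Over astrocytes 3 of the 14 were higher in EC and 3 lower, or 6 and 3 without pericyte library 6 and astrocyte libraries 6 and 10. With all libraries that was 21.4% each way, near the 20.2% higher and 21.5% lower of all tested genes. Of 10 smooth muscle markers 8 were lower and 1 higher in the pooled comparison, with a median log2 fold change of -1.19. Over pericytes 8 were lower and 0 higher, over OPC 3 and 3, and over astrocytes 2 and 1. Of 11 tested fibroblast markers 9 were lower and 0 higher pooled, with a median of -3.70. All 11 were lower than in pericytes, at a median of -8.80. Over OPC 3 were lower, 0 higher and 8 did not pass, at -0.70. Over astrocytes 4 were lower and 2 higher, at 0.13. Of all tested genes, 33.6%, 24.9% and 21.5% were lower over pericytes, OPC and astrocytes, and 26.1%, 28.3% and 20.2% were higher. Of the smooth muscle markers, 30.0% were lower and 30.0% higher over OPC and 20.0% lower over astrocytes, near those shares. The 27.3% of fibroblast markers lower over OPC and the 18.2% higher over astrocytes also lay near them. The sum of the smooth muscle markers was 30.3, 41.9, 22.3, 29.9 and 38.9 CPM in EC, against 853 to 1747 CPM (median 1067) in pericyte, 72.0 to 108 CPM (median 80.3) in OPC and 45.9 to 102 CPM (median 74.9) in astrocyte libraries. The sum of the fibroblast markers was 15.0, 19.0, 11.4, 15.8 and 18.5 CPM in EC, against 1890.3 to 7652 CPM (median 3271) in pericyte, 815 to 1528 CPM (median 1211) in OPC and 81.5 to 123 CPM (median 106) in astrocyte libraries. EC libraries were below all others in both sums. Pdgfra, on the fibroblast list, is also an OPC marker.

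Glial markers were lower in EC than in the cells they define, and not always lower than in other types. All 14 astrocyte markers were lower than in astrocytes, against 21.5% of all genes lower in that comparison, with a median log2 fold change of -3.72, while 12 were higher than in OPC, against 28.3% of all genes. In the pooled comparison 1 was higher and 7 lower, against 25.8% and 26.7% of all tested genes. Slc1a3, the glutamate transporter GLAST, had 249 ± 59.1 CPM in EC, against 364 ± 88.4, 211 ± 17.0 and 4497 ± 1109 CPM in pericyte, OPC and astrocyte libraries, and its log2 fold change over astrocytes was -4.18 ± 0.23, adjusted p = 6.35e-13. All 13 OPC markers were lower in the pooled comparison, and 7 were lower than in each type, against 26.7% and 3.03% of all tested genes. Matn4, a matrix protein, had 6.90 ± 1.31 CPM in EC, against 30.5 ± 6.40, 452 ± 38.9 and 49.1 ± 18.4 CPM in pericyte, OPC and astrocyte libraries and log2 fold changes of -2.15, -6.03 and -2.83. Of 15 microglia markers, 1 was higher and 10 lower in the pooled comparison, against 25.8% and 26.7% of all tested genes. Their median log2 fold change was -1.35. Over pericytes 14 were lower and over astrocytes 13, against 33.6% and 21.5% of all tested genes. Over OPC 3 were higher, 2 lower and 10 did not pass, with a median of 0.37. Those 20.0% higher and 13.3% lower were below the 28.3% and 24.9% of all tested genes. P2ry12, the purine receptor of microglia, had 5.64 ± 0.264 CPM in EC, against 28.1 ± 12.1, 8.05 ± 2.86 and 52.0 ± 9.48 CPM in pericyte, OPC and astrocyte libraries, and its log2 fold changes over pericytes and astrocytes were -2.32 and -3.20. Over OPC it was -0.51 and did not pass, at an adjusted p of 0.0778, though it passed in some fits that left out 1 library.

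Markers of neurons were higher in EC than in the other types. The sum of 13 neuron markers was 7779.8, 7321, 9897, 9706 and 7550.1 CPM in EC, against 1250.3 to 3090.4 CPM (median 1649) in pericyte, 748 to 1511 CPM (median 850.4) in OPC and 2386 to 3750.1 CPM (median 3042) in astrocyte libraries. Every EC library was above every other library. All 13 were higher in the pooled comparison, against 25.8% of all tested genes, with a median log2 fold change of 2.24, and 11 were higher than in each type, against 5.39%. Syt1, a calcium sensor of synaptic vesicles, had 1195, 1023, 1429, 1445 and 1089 CPM in EC, against 167 to 424 CPM (median 208) in pericyte, 47.4 to 148 CPM (median 60.9) in OPC and 331 to 569 CPM (median 436) in astrocyte libraries. The Syt1 log2 fold change was 2.23 ± 0.27 over pericyte, 4.04 ± 0.30 over OPC and 1.48 ± 0.28 over astrocyte libraries, with a largest adjusted p of 1.04e-04. Gad1 and Gad2, which make GABA, had log2 fold changes of 2.92, 3.65 and 1.39 for Gad1 and 2.71, 4.25 and 1.54 for Gad2. On the red cell list none of the 4 haemoglobin genes passed in the pooled comparison or over any single type. Some genes described above as endothelial are also neuronal, among them Stmn2 and Tac2, and the part of neuronal RNA in their values was not tested. None of the 14 endothelial markers is on the neuron list, which does not measure neuronal RNA in their values, and that part was not tested either.

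Of 10 striatal neuron markers, 6 were higher and 0 lower in the pooled comparison, against 25.8% and 26.7% of all tested genes. Higher than in each type was 1, Tac1, against 5.39% of all tested genes, at log2 fold changes of 2.61, 2.32 and 1.60. Penk, the precursor of enkephalin, had 364 ± 235 CPM in EC, against 127 ± 83.1, 59.4 ± 7.15 and 311 ± 87.1 CPM in pericyte, OPC and astrocyte libraries and did not pass over astrocytes, at a log2 fold change of 0.23 ± 0.38, adjusted p = 0.67, or -0.22 without EC library 5. The sum of the striatal markers was 1445, 2529.9, 694, 858 and 1308 CPM in EC, against 325 to 1129.9 CPM (median 729) in pericyte, 234 to 318 CPM (median 282) in OPC and 1205 to 1918 CPM (median 1423) in astrocyte libraries, so EC libraries overlapped pericyte and astrocyte libraries. Of 10 ependymal and choroid plexus genes, 4 were higher and 1 lower in the pooled comparison, against 25.8% and 26.7% of all tested genes. Those higher were the cilia genes Foxj1, Ccdc153, Tmem212 and Dynlrb2, and the lower one was Kcnj13, whose adjusted p was 0.0553 without EC library 11 and whose log2 fold change was -2.48 without pericyte library 6, against -3.20 with all libraries. Tmem212 had 45.9, 29.4, 24.3, 47.2 and 65.8 CPM in EC, against 1.38 to 4.78 CPM (median 2.41) in pericyte, 0.657 to 1.97 CPM (median 0.847) in OPC and 10.0 to 20.7 CPM (median 16.1) in astrocyte libraries, and its log2 fold changes were 3.87, 5.38 and 1.45.

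The sum of 14 mature oligodendrocyte markers was 15197, 13392, 11799, 8551 and 17491 CPM in EC, against 14789 to 47709.6 CPM (median 30336) in pericyte, 106995 to 126262 CPM (median 124427) in OPC and 4280.3 to 8993 CPM (median 5925) in astrocyte libraries. EC libraries were below all OPC libraries and overlapped both other types. Of these markers 1 was higher and 8 lower in the pooled comparison, against 25.8% and 26.7% of all tested genes. The counts were 3 and 8 without pericyte library 6 and astrocyte libraries 6 and 10. Higher than in astrocytes were 11, against 20.2% of all tested genes.

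**Figure D5:**
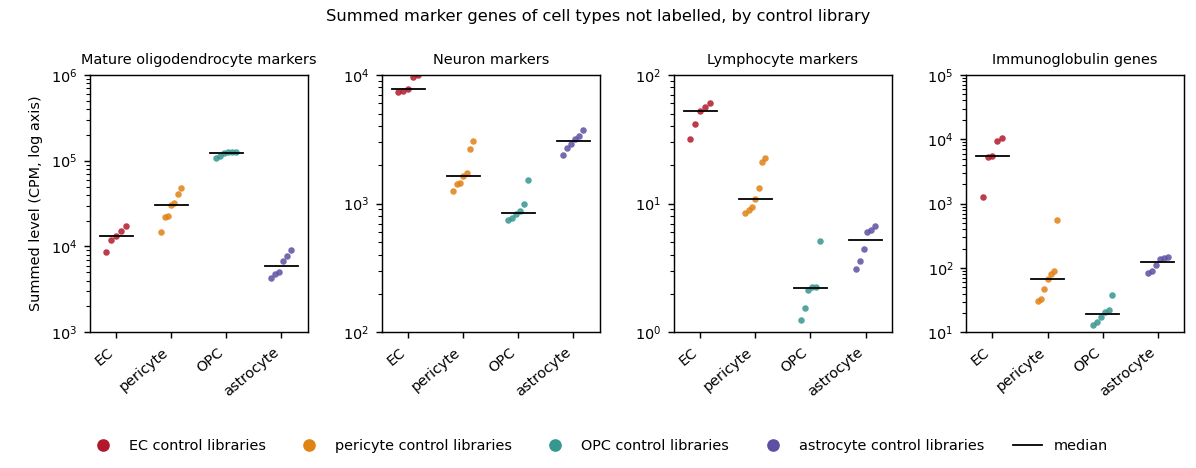
Summed CPM (log axis) of the mature oligodendrocyte, neuron and lymphocyte marker lists and of 268 immunoglobulin genes in each control library of EC, pericyte, OPC and astrocyte, with 1 point a library and a black line at the median. The EC libraries hold 7321 to 9897 CPM of neuron markers and 1254 to 10419 CPM of immunoglobulin genes, above all other libraries in both.

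Lymphocyte and immunoglobulin transcripts were also higher in EC. All 7 tested lymphocyte markers were higher in the pooled comparison, with a median log2 fold change of 3.11, and 6 were higher than in each type. Of all tested genes these shares were 25.8% and 5.39%. The sum of the lymphocyte list was 52.5, 41.4, 60.1, 56.5 and 31.7 CPM in EC, against 8.45 to 22.5 CPM (median 10.8) in pericyte, 1.24 to 5.10 CPM (median 2.20) in OPC and 3.08 to 6.73 CPM (median 5.19) in astrocyte libraries. Trbc2, a T cell receptor constant chain, had 39.7, 33.1, 55.4, 50.9 and 27.5 CPM in EC, against 7.85 to 20.3 CPM (median 9.13) in pericyte, 0.976 to 4.56 CPM (median 1.75) in OPC and 2.63 to 6.05 CPM (median 4.22) in astrocyte libraries. The Trbc2 log2 fold change was 1.78 ± 0.33 over pericyte, 4.32 ± 0.38 over OPC and 3.24 ± 0.36 over astrocyte libraries, with a largest adjusted p of 7.10e-05. Cd79a, the B cell receptor subunit, had 5.44, 0.95, 0.767, 0.257 and 1.19 CPM in EC. Its log2 fold change over pericytes was 2.46 ± 0.84, adjusted p = 0.0152, and 1.33 with an adjusted p of 0.198 without EC library 3. Cd3g, of the T cell receptor complex, had a log2 fold change over pericytes of 1.99 ± 0.76, adjusted p = 0.0274, and 1.80 with an adjusted p of 0.0641 without EC library 3. It also missed the threshold without EC library 9, at an adjusted p of 0.0693, and without pericyte library 15, at 0.0516.

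Immunoglobulin genes were examined after their values were seen. The sum over 268 genes was 9264, 5460, 5232, 1254 and 10419 CPM in EC libraries 3, 5, 7, 9 and 11, against 30.7 to 564 CPM (median 67.6) in pericyte, 12.9 to 37.8 CPM (median 19.0) in OPC and 83.0 to 145 CPM (median 124) in astrocyte libraries. EC libraries were above all others and spread widely among themselves. Of 38 tested immunoglobulin genes, 37 were higher in the pooled comparison, against 25.8% of all tested genes, and 31 than in each type, against 5.39%. These genes are close paralogs, and reads may be split between them. The part of blood cells in the EC values was not tested. The 10 monocyte and border macrophage markers split into 3 higher and 2 lower in the pooled comparison, near the 25.8% and 26.7% of all tested genes. Ly6c2 was the member higher than in each type, with 8.90 ± 5.61 CPM in EC, against 0.381 ± 0.452, 0.0386 ± 0.052 and 0.0376 ± 0.041 CPM in pericyte, OPC and astrocyte libraries, and it may share reads with Ly6c1. Mrc1, the mannose receptor of border macrophages, was lower than in pericytes at a log2 fold change of -5.52 ± 1.38, adjusted p = 0.00153, or -8.23 without EC library 3. Of the neutrophil markers 0 passed the filter on low counts, and their sum in EC was 0.0285, 0.0294, 0, 0.1 and 0.168 CPM.

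Immediate early genes were mostly higher in EC. Of 20 genes, 16 were higher and 1 lower in the pooled comparison, against 25.8% and 26.7% of all tested genes, with a median log2 fold change of 1.56, and 5 were higher than in each type, against 5.39%. Their sum was 1869, 1784, 2176, 1899.7 and 1180.4 CPM in EC, against 628 to 1068 CPM (median 756) in pericyte, 659 to 875 CPM (median 785) in OPC and 871 to 1286 CPM (median 1103) in astrocyte libraries. EC library 11, the lowest, overlapped the astrocyte libraries. Fos had 101, 83.9, 98.3, 82.9 and 58.4 CPM in EC, against 9.07 to 21.6 CPM (median 13.5) in pericyte, 3.40 to 12.5 CPM (median 6.18) in OPC and 54.7 to 105 CPM (median 84.1) in astrocyte libraries, and did not pass over astrocytes, at a log2 fold change of 0.06 ± 0.25, adjusted p = 0.871. Fosl2 was higher than in each type, with log2 fold changes of 1.54, 3.19 and 1.77. Several of these genes also respond to neuronal activity, and the part of neuronal RNA in their values was not tested. Of 4 tested sex-linked genes, all on the Y chromosome, 3 were lower in EC in the pooled comparison, against 26.7% of all tested genes. Lower than in each type was 1 of the 4, Uty, against 3.03% of all tested genes. Uty had 11.6, 11.0, 8.02, 9.48 and 6.06 CPM in EC, against 14.0 to 48.6 CPM (median 20.9) in pericyte, 13.9 to 23.5 CPM (median 18.4) in OPC and 15.1 to 25.4 CPM (median 18.0) in astrocyte libraries. The Uty log2 fold change was -1.57 ± 0.26 over pericyte, -1.01 ± 0.27 over OPC and -1.03 ± 0.27 over astrocyte libraries, with a largest adjusted p of 0.0028. With EC libraries 3 and 5 alone it missed the threshold over OPC, at an adjusted p of 0.11, over astrocytes, at 0.222, and pooled, at 0.0629.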

How the data were processed

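RNA of cell-type libraries from mouse cerebral white matter was extracted with NucleoSpin RNA XS and made into libraries with SMART-Seq v4, per the labels' protocols; this kit marks neither strand nor molecules, so overlapping and antisense genes cannot be told apart. The authors deposited whole-number counts of reads per Ensembl gene with no normalization, in tables of 52636 genes each, of which 4 tables and their 24 control libraries were used. The tools listed are bcl2fastq 2.20, STAR and HTSeq, with GRCm38 as the build, per the submitters' processing notes; the column names begin with hisat, and no annotation release is stated. The 37 mitochondrial genes had 0 counts in all control libraries. No symbol was found for 233 genes (at most 0.0484% of any library's counts), and 147 genes shared one. Symbols and coordinates came from GENCODE M21, and promoter sequences from RefSeq on GRCm38.p6.

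Groups were taken from the labels. One model over the 24 libraries was fitted with edgeR 4.0.16 in R 4.3.3 (TMM factors, filterByExpr, quasi-likelihood test), which left 23060 genes and 20 residual degrees of freedom. The pooled comparison set EC against the mean of the 3 other types, so that each type had equal weight. A gene was called at a Benjamini-Hochberg adjusted p under 0.05. Standard errors were taken from the fold change and its F statistic. A floor of 3 counts over a group was used where a gene had 0 counts, and it covers counting error only. On simulated data with known changes, the pooled fit recovered 95% of genes changed by 2 on the log2 scale and 68% of those changed by 1. The single comparisons recovered 89% to 90% and 49% to 52%, with 6 to 9 false calls. The simulated libraries shared 1 mean per gene except for the genes changed in EC. The other types did not differ from each other there, so these rates need not hold for the data.

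Named genes were the 4 given endothelial markers, the 12 genes with the largest smallest-of-3 log2 fold change among those called higher than each type and at least 10 CPM in EC, and the 8 with the opposite pattern and at least 10 CPM in the lowest other type. Predicted genes, pseudogenes, immunoglobulin, ribosomal protein and microRNA genes were left out of these. Up to 4 called members of each gene list, by p, were added. Some genes that these rules name are not reported here. Further list members named in the text, and the immunoglobulin genes, were chosen after their values were seen. The members, lists and comparisons were chosen with earlier results of these data known. Alternatives were other scaling factors, other filters, DESeq2 1.42.0, a fit of each pair alone, a fit of 2 groups, a replicate block, thresholds and leaving out libraries. The fit without pericyte library 6 and astrocyte libraries 6 and 10 was chosen after seeing the data.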

Additional observations from a re-analysis of the deposited data

Results flagged for a closer look

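In the 59 groups of 4 to 10 values examined, 1 library lay far from the rest of its group in 3 EC genes by Dixon's ratio at a critical value of 0.71 for 5 values; chance gives about 1 in 20. Bgn was 11.6 CPM in EC library 11, the highest of the 5. Mfap2 was 4.50 CPM in the same library, again the highest. In both genes EC library 11 was still below all 19 libraries of the other types. Ighg1, an immunoglobulin heavy chain gene, was 189 CPM in EC library 3.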

How the results depend on the processing

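Of 692 log2 fold changes of 173 named genes, 34 changed sign under at least 1 alternative, among them Kcnj8 over astrocytes, at -0.26 with the replicate block. Of these, 5 had passed and turned with EC set against the 19 other libraries as 1 group, without passing there: pooled, Angpt2 was -0.36, Ets1 -0.056, Foxc1 -1.82, Slc22a8 -0.75 and Tbx3 -1.10. Vcam1 over pericytes passed with the other sign, at 0.93 with DESeq2, 1.09 without pericyte library 6, and 1.09 without pericyte library 6 and astrocyte libraries 6 and 10; leaving out 1 library at a time gave -0.99 to 1.09. The other 28 passed neither in the fit reported nor where they turned, among them Penk over astrocytes, at -0.42 with EC libraries 7, 9 and 11 alone. With EC set against the 19 other libraries as 1 group, 3304 genes were higher and 4059 lower in the pooled comparison, against 5944 and 6165, since the other types then share 1 mean, and of 173 pooled values of named genes 33 more missed the threshold and 89 moved by over 1.5 times. With EC libraries 3 and 5 alone 39 of the 692 values missed the threshold, and 2977 genes were lower pooled, 4169 lower than pericytes, 2575 lower than astrocytes and 439 lower than each type. An adjusted p under 0.01 left 463 genes lower than each type. With no minimum fold 2171 were higher and 1630 lower than each type, and with a log2 fold change of at least 2 in each there were 409 and 272. Leaving out 1 library at a time gave 5458 to 6283 higher and 5254 to 6382 lower genes pooled. It gave 5676 to 6315 and 6930 to 7865 against pericytes, 5944 to 6710 and 5393 to 6009 against OPC, and 4277 to 5532 and 3903 to 5163 against astrocytes. Higher and lower than each type were 1158 to 1361 and 578 to 730 genes, of which 1024 and 390 were called in all 24 such fits.

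Replicate numbers recur across cell types, but the 8 EC pairs of libraries with equal numbers had correlated deviations of only -0.104 to 0.0458 (median -0.0262), so the numbers were not taken as pairs. With the number as a replicate block, which left 7 residual degrees of freedom, 3771 genes were lower pooled, 4290 lower than pericytes, 2481 higher and 2553 lower than astrocytes, and 389 lower than each type. The block gave 4113 genes higher pooled and 926 higher than each type, and 33 of 692 named values missed the threshold, 2 newly passed and 69 moved by over 1.5 times. DESeq2 kept the side and sign of 681 of 688. Without pericyte library 6 and astrocyte libraries 6 and 10, 26 of 692 moved by over 1.5 times, and over astrocytes Sox17 was 6.45, Icam2 7.88 and Tie1 7.10. Pericyte libraries 11 and 15 were the closest pair, with a mean chi-square of 16.1 per gene, far above sampling noise, and summing them left 688 of 692 named values on their side of the threshold. Depth limits genes at few counts, such as Sema3g outside EC.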
